A study of Homo sapiens with 12 samples.

Results

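The complement components and regulators described here are 9 genes of the 23346 in the deposited expression table, namely *C1R*, *C1S*, *C3*, *CFB*, *CFI*, *C4BPB*, *CD46*, *CD55* and *CD59*. They were taken by their gene symbols, and the set was chosen with earlier results of these data known. SW1990 and CFPAC-1 are established lines of human pancreatic adenocarcinoma that grow as monolayers. Their RNA was sequenced after sorting on the antibody GCTM-5, which recognises a glycoprotein complex at the surface of part of the cells of each line. The 12 samples formed 4 groups of 3, namely GCTM-5 negative and positive SW1990 cells and GCTM-5 negative and positive CFPAC-1 cells. All cells were incubated with the antibody and sorted, and the gates kept the strongly stained and the unstained cells only, so cells of intermediate staining were in no group. No treatment or genetic change is named for either line, and each group rests on sorts of a single line. Levels are RPKM, the reads of a gene scaled by the length of the gene and the depth of the library.

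Complement is a set of plasma and surface proteins that marks cells and particles for removal and can open pores in their membranes. The classical pathway starts when C1, made of C1q and the proteases C1r and C1s, cleaves C4 and C2, and the alternative pathway amplifies the cleavage of C3 with factor B as its protease. Host cells restrain both with soluble inhibitors, among them factor I and C4b-binding protein, and with the membrane proteins CD46, CD55 and CD59. The liver makes most of the soluble components, and epithelial and tumour cells are also known to transcribe several of them.

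The libraries held 9969697 to 26159330 reads, and 16135 to 17224 genes were above 0 in a sample. No pair of replicates agreed within sampling noise. In SW1990, replicate 1 had the lowest level of its group for 8 of the 9 genes, in negative and in positive cells alike, and the highest for *C4BPB*. In positive CFPAC-1 cells, replicate 1 was the lowest for 7 of the 9. Of 8 pancreatic duct markers, 6 in SW1990 and 7 in CFPAC-1 had a group mean of at least 0.1 RPKM, and *CFTR* was near 0 in every sample. Fewer cells with a transcript and less transcript per cell cannot be told apart in these bulk samples.

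The genes lie at 6 places in the genome, with coordinates from GENCODE mapped to GRCh37, the build of the deposited values. *C1S* (chromosome 12, 7096351 to 7178336, forward strand) and *C1R* (7187513 to 7245203, reverse strand) are neighbours 9177 bases apart. *C4BPB* (chromosome 1, 207262205 to 207273338), *CD55* (207494864 to 207560149) and *CD46* (207925382 to 207968858) lie on the forward strand within 707 kb. *CFB* (31913427 to 31919863) is on chromosome 6, where its start overlaps the end of *C2* by 24 bases. *C3* is on chromosome 19 (6677715 to 6730573), *CFI* on chromosome 4 (110652164 to 110723306) and *CD59* on chromosome 11 (33724556 to 33758025), all on the reverse strand. Whether counting used the strand is not given in the sources used here.

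Promoter windows of RefSeq on the later build GRCh38.p14, 250 bases before to 50 after a start, were found for 7 of the 9 genes, with 14 windows in all. *C1S* and *C3* had none in the table. The windows were searched on both strands for 4 motifs of complement regulation and epithelial state, namely the interferon-gamma element GAS (TTCNNNGAA), the interferon element ISRE (TTTC, any 2 bases, TTTC), the kappaB site and the E-box CACCTG bound by ZEB and SNAIL repressors. The 250 bases before the start are shown for *CFB*, *CD55* and *CFI*, which have a single window each and were lower in positive cells of both lines. Motif matches stand in capitals, and each sequence is read in the direction of its gene.
*CFB*, chr6:31945845-31946094, forward strand: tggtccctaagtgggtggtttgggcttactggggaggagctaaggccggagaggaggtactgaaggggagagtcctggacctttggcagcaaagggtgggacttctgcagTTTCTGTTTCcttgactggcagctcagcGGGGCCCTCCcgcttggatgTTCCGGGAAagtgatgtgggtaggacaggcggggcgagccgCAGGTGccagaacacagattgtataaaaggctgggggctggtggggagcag
*CD55*, chr1:207321428-207321677, forward strand: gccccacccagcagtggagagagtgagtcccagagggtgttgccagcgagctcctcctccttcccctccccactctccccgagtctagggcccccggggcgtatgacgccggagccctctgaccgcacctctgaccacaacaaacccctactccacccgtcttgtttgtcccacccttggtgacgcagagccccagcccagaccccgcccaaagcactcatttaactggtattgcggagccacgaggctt
*CFI*, chr4:109802000-109802249, reverse strand: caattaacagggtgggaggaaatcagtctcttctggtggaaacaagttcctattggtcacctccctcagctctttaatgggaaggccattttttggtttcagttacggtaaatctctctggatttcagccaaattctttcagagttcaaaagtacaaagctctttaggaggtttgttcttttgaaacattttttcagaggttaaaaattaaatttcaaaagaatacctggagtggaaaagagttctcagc

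The *CFB* window held a match to each of the 4 motifs, in the order ISRE (position -140 from the start), kappaB (-112), GAS (-92) and E-box (-51). The *CD55* and *CFI* windows held none. Elsewhere GAS matched windows of *C1R*, *C4BPB* and *CD59*, and the E-box matched windows of *C1R*, *CD46* and *CD59*. Of 35116 windows searched, 7.66% held GAS, 3.57% ISRE, 11.3% kappaB and 20.6% the E-box. Counted by gene, since a gene can have several windows, the shares of 27305 genes were 9.38%, 4.38%, 13.3% and 24.1%. The matches describe letters in these windows, and no binding was measured.

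In both lines the complement genes were expressed mainly at lower levels in GCTM-5 positive cells. In SW1990, 6 of the 9 genes (*C1R*, *C1S*, *CFB*, *CFI*, *CD55* and *CD59*) fell and 0 rose at an adjusted p under 0.05 (limma, Benjamini-Hochberg over 16236 genes), beside 16.9% of all genes tested that were lower and 11.3% that were higher. In CFPAC-1, 8 of the 9 fell, all but *C4BPB*, and 0 rose, beside 14.2% lower and 22.3% higher among all genes. The median log2 fold change of the 9 genes was -1.57 in SW1990 and -1.45 in CFPAC-1, where all genes tested had medians of -0.04 and 0.05.

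The study's thresholds, a change over 2-fold with p under 0.01, read here as unadjusted, were passed by 4 of the 9 in SW1990 (*C1R*, *C1S*, *CFI* and *CD55*) and by the same 4 and *CFB* in CFPAC-1. Among all genes tested, 7.48% in SW1990 and 4.13% in CFPAC-1 were lower by these thresholds. The samples of positive and negative cells did not overlap for 5 of the 9 genes in SW1990 and for 8 in CFPAC-1, all lower in positive cells, beside 25.4% and 20.4% of all genes tested. The counts past the adjusted p rested in part on single libraries in both lines. In SW1990 the count was 4 without negative replicate 2, which ended the calls of *CFB* and *CD59*. In CFPAC-1 it was 5 without negative replicate 1, which ended the calls of *C1S*, *C3* and *CFB*. It was 6 there without positive replicate 1 or negative replicate 3, each of which ended the calls of *C3* and *CFB*.

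**Figure D1:**
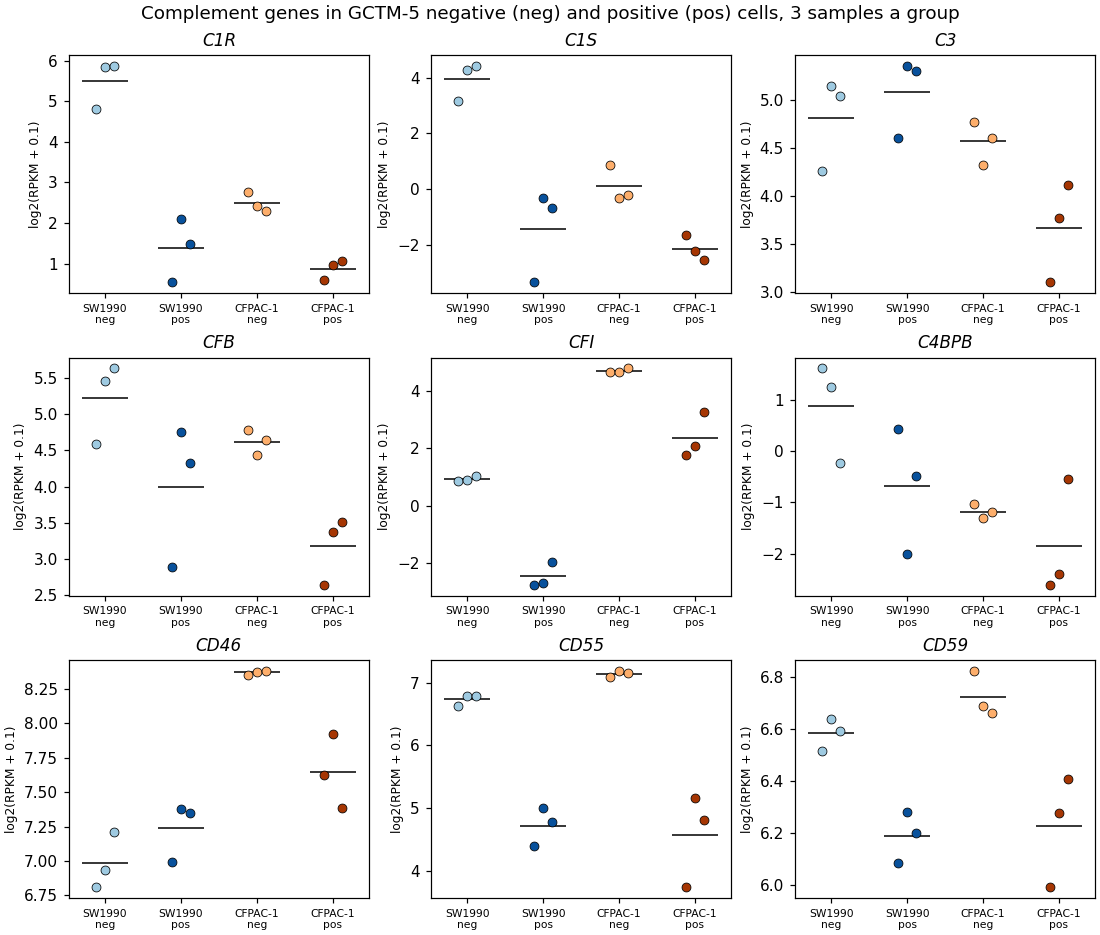
Level of each complement gene in each of the 12 samples, as log2 of RPKM plus 0.1, with samples grouped by line and GCTM-5 staining and lines at the mean of each group's 3 log2 values. *C1R*, *C1S*, *CFI*, *CD55* and *CD59* are lower in every positive sample than in every negative sample of the same line, and the *C3* and *CD46* samples of SW1990 overlap.

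In SW1990 the proteases of C1 had the largest falls of the 9 genes. *C1R*, the protease that activates C1s, stood at 27.9, 57.4 and 58.6 RPKM in negative SW1990 cells (47.9 ± 17.4, SD, n = 3) and at 1.36, 4.21 and 2.69 RPKM in positive ones (2.76 ± 1.42). The lowest negative sample was thus far above the highest positive one, although the negative samples themselves ranged widely. Its mean was 17.4-fold lower in positive cells, and the log2 fold change was -4.13 (SE 0.36, adjusted p = 5.7e-06, limma). In CFPAC-1, *C1R* read 6.71, 5.29 and 4.78 RPKM in negative cells and 1.42, 1.86 and 1.99 RPKM in positive cells. These groups were also apart, at a lower level, with a mean 3.18-fold lower in positive cells and a log2 fold change of -1.62 (SE 0.36, adjusted p = 0.00513).

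*C1S*, the protease of C1 that cleaves C4 and C2, was at 8.92, 19.1 and 21.4 RPKM in negative SW1990 cells and at 0, 0.713 and 0.522 RPKM in positive ones. Positive replicate 1 held 0 reads of *C1S* in 19399593, a count that allows up to 3. Over the pooled reads the ratio of negative to positive cells was 41.4 (95% exact interval 32.1 to 54.5). This interval, like the others on pooled reads, covers counting error only. The log2 fold change of -5.39 (SE 0.67, adjusted p = 8.33e-05) was the lowest of the 9 genes in SW1990.

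In CFPAC-1 cells *C1S* was scarce, at 1.74, 0.716 and 0.768 RPKM in negative cells (95, 44 and 43 reads) and 0.218, 0.114 and 0.0714 RPKM in positive cells (16, 6 and 2 reads). The samples did not overlap, and the pooled ratio was 6.8 (4.43 to 10.9). The log2 fold change was -2.27 (SE 0.67, adjusted p = 0.0207). The call was lost without negative replicate 1 (-1.89, adjusted p = 0.0789) or positive replicate 3 (-2.07, adjusted p = 0.061), with a pseudocount of 0.01 and with voom on reads, and adjusted p ranged from 0.00116 to 0.0977 over 23 alternatives. *C1R* was the more abundant of the pair in all 12 samples. The ratio of *C1R* to *C1S* was 2.96 ± 0.196 in negative SW1990 cells, and 5.91 and 5.15 in the positive samples that had *C1S* reads. In CFPAC-1 it was 5.82 ± 1.79 in negative and 16.9 ± 10.7 in positive cells, with overlapping samples (exact permutation p = 0.2).

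Markers of duct and of other cell types moved with the SW1990 groups and are given here beside the C1 proteases. The C1 proteases had the lowest log2 fold changes of the 9 genes in that line on the scale of RPKM plus 0.1. The duct markers summed to 1630 to 1970 RPKM in negative and 4290 to 4800 RPKM in positive SW1990 cells, and to 5510 to 6270 and 6740 to 8230 RPKM in CFPAC-1. Keratin genes made up most of these sums. From negative to positive SW1990 cells the mean of *KRT8* went from 721 to 1880 RPKM, but *KRT7* (286 to 315) and *SOX9* (43.9 to 48.1) differed little. In CFPAC-1 *KRT8* rose (1700 to 2780), while *KRT19* (2850 to 2600), *EPCAM* (237 to 227) and *SOX9* (126 to 117) were slightly lower in positive cells. Of 6 endothelial markers, 4 reached a mean of 0.1 RPKM in negative SW1990 cells, with a summed level of 15.0 to 19.0 RPKM in negative SW1990 cells and 1.52 to 2.29 RPKM in positive ones, mostly *CDH5*. Of 9 fibroblast markers 3 reached it, summing to 12.8 to 22.7 and 3.9 to 4.88 RPKM, mostly *LUM*, while *DCN* and *COL3A1* were near 0 and *THY1* was at 0. Of 8 hepatocyte markers 1 reached it, *APOA1*, and the sums were 18.5 to 21.7 and 0.46 to 1.13 RPKM, with *ALB* near 0 and *TTR* at 0. Of 8 leukocyte markers 3 reached it, summing to 35.7 to 50.0 and 16.3 to 34.9 RPKM, mostly *CD68*, with *PTPRC*, *CD3E* and *ITGAM* near 0. Their part in the complement differences was not tested.

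In CFPAC-1 the sums of endothelial and fibroblast markers were at most 1.58 and 2.4 RPKM. The hepatocyte sum was 21.7 to 30.7 RPKM in negative and 7.37 to 21.7 RPKM in positive CFPAC-1 cells, nearly all from the fibrinogen gene *FGB*, and the leukocyte sums of the groups overlapped, at 179 to 210 and 163 to 228 RPKM. Acinar and endocrine markers summed to under 1 RPKM in every sample of both lines.

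*C3* encodes the component on which all pathways converge. Its level in SW1990 was 19.1, 35.2 and 32.8 RPKM in negative and 24.3, 40.9 and 39.3 RPKM in positive cells, and the samples overlapped. The log2 fold change was 0.28 (95% interval -0.36 to 0.91, adjusted p = 0.539). In CFPAC-1, *C3* was at 27.3, 20.0 and 24.2 RPKM in negative and at 8.51, 13.6 and 17.2 RPKM in positive cells, every positive sample being below every negative one. It fell 1.82-fold by its mean, with a log2 fold change of -0.91 (SE 0.29, adjusted p = 0.0297). This call was lost without negative replicate 1, negative replicate 3 or positive replicate 1 of CFPAC-1 (-0.80, -0.89 and -0.63, adjusted p of 0.094, 0.0784 and 0.121) and with the CFPAC-1 groups fitted alone (adjusted p = 0.0559).

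*CFB*, which encodes factor B of the alternative pathway, was at 24.0, 44.0 and 49.6 RPKM in negative SW1990 cells and at 7.26, 26.9 and 20.0 RPKM in positive ones. The highest positive sample was above the lowest negative one. The log2 fold change was -1.24 (SE 0.42, adjusted p = 0.045), close to the threshold, and it passed under 9 of 23 alternatives, with adjusted p from 0.00681 to 0.164. Without positive replicate 1 it was -0.68 (adjusted p = 0.152), and without negative replicate 2, negative replicate 3 or positive replicate 3 of SW1990 the call was likewise lost. It was also lost without any of the negative CFPAC-1 samples or positive replicate 2 or 3 of CFPAC-1, which enter the fit only through the shared estimate of the spread. In CFPAC-1, *CFB* was at 27.4, 21.6 and 24.9 RPKM in negative and at 6.14, 10.2 and 11.3 RPKM in positive cells, with no overlap. Its mean was 2.67-fold lower, with a log2 fold change of -1.45 (SE 0.42, adjusted p = 0.0186), which was lost without negative replicate 1 (adjusted p = 0.0568), negative replicate 3 (0.0526) or positive replicate 1 (0.0755).

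The balance of these alternative pathway transcripts was read from the ratio of *C3* to *CFB*. In SW1990 it was 0.794, 0.799 and 0.662 in negative cells and 3.35, 1.52 and 1.96 in positive cells. In CFPAC-1 it was 0.997, 0.925 and 0.975 in negative and 1.39, 1.33 and 1.53 in positive cells. *C3* was thus below *CFB* in all 6 negative samples and above it in all 6 positive samples on the RPKM scale. Each line gave an exact permutation p of 0.1 (2-sided), the smallest that 3 against 3 samples allow.

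*CFI* encodes factor I, the protease that inactivates C3b and C4b with the help of cofactors. It was at 1.69, 1.75 and 1.96 RPKM in negative SW1990 cells and at 0.0477, 0.0545 and 0.157 RPKM in positive ones, which rest on 2, 2 and 6 reads against 75 to 88. The ratio of the pooled reads was 20.9 (11.2 to 44.2) and the log2 fold change was -3.40 (SE 0.33, adjusted p = 1.21e-05). In CFPAC-1, where the gene was much more abundant, it was at 25.2, 24.8 and 27.4 RPKM in negative and at 3.27, 4.07 and 9.52 RPKM in positive cells. Positive replicate 3 was the highest of its group and still well below the negative samples. The log2 fold change was -2.33 (SE 0.33, adjusted p = 0.000336), and the calls of *CFI* in both lines held under all 23 alternatives.

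*C4BPB* encodes the beta chain of C4b-binding protein, a soluble inhibitor of the classical pathway. It was at 2.97, 2.3 and 0.757 RPKM in negative and 1.25, 0.148 and 0.614 RPKM in positive SW1990 cells (16 to 73 and 3 to 29 reads), with overlap. In CFPAC-1 it had 8 to 9 reads in each negative sample and 2 to 7 in each positive one. The log2 fold changes were -1.57 (95% interval -3.05 to -0.10, adjusted p = 0.109) and -0.67 (-2.15 to 0.81, adjusted p = 0.47), and neither passed the test. Without positive replicate 1 of SW1990 its value in that line was -2.14 (adjusted p = 0.0473). The pooled read ratio in CFPAC-1 was 2.04 (0.967 to 4.59), so a difference was not detectable at this depth.

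By mean RPKM, the membrane regulators were the 3 most abundant of the 9 genes in both negative groups, at 95.7 to 331 RPKM. *CD55* encodes decay-accelerating factor, a GPI-anchored protein that dissociates the C3 convertases. It was at 99.1, 111 and 111 RPKM in negative and 20.9, 31.8 and 27.2 RPKM in positive SW1990 cells. In CFPAC-1 it was at 136, 146 and 143 RPKM in negative and 13.2, 35.7 and 28.0 RPKM in positive cells. Both lines thus showed groups that lay far apart, with negative samples close to each other. The mean was 4.02-fold lower in positive SW1990 cells (log2 fold change -2.02, SE 0.28, adjusted p = 0.000182) and 5.55-fold lower in positive CFPAC-1 cells (-2.58, SE 0.28, adjusted p = 7.08e-05), under all 23 alternatives in each line.

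*CD59* encodes the GPI-anchored inhibitor of the membrane attack complex. It was at 91.3, 99.5 and 96.4 RPKM in negative and 67.8, 77.7 and 73.4 RPKM in positive SW1990 cells, with a log2 fold change of -0.39 (SE 0.11, adjusted p = 0.0152). In CFPAC-1 it was at 113, 103 and 101 RPKM in negative and 63.5, 77.4 and 84.8 RPKM in positive cells, with a log2 fold change of -0.49 (SE 0.11, adjusted p = 0.00382). The samples did not overlap in either line, and the falls were small beside those of *CD55*. The SW1990 call was lost without positive replicate 1 (-0.34, adjusted p = 0.0596) or negative replicate 2 (-0.36, adjusted p = 0.0511).

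*CD46* encodes membrane cofactor protein, a transmembrane cofactor of factor I. In SW1990 it was at 112, 122 and 148 RPKM in negative and 127, 166 and 163 RPKM in positive cells. These samples overlapped, and the log2 fold change was 0.26 (95% interval -0.07 to 0.59, adjusted p = 0.245). In CFPAC-1 it was at 327, 332 and 333 RPKM in negative and 197, 243 and 167 RPKM in positive cells. Here every positive sample was lower, and the gene fell with a log2 fold change of -0.73 (SE 0.15, adjusted p = 0.00326).

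**Figure D2:**
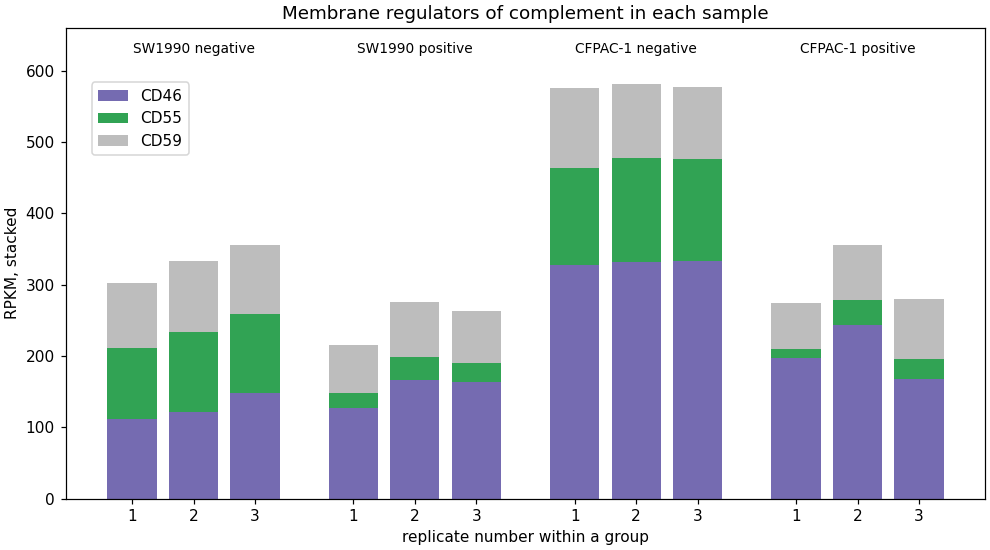
RPKM of *CD46*, *CD55* and *CD59* stacked for each of the 12 samples, with the replicate number on the horizontal axis. The green *CD55* part is at least 99.1 RPKM in each negative sample and at most 35.7 RPKM in each positive sample, and the stacks of negative CFPAC-1 cells, at 576 to 581 RPKM, are the highest.

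The makeup of the membrane regulators differed between negative and positive cells. Their summed level was 330 ± 27.1 RPKM in negative and 252 ± 32.3 RPKM in positive SW1990 cells, with 578 ± 2.89 and 303 ± 45.7 RPKM in CFPAC-1 (SD, n = 3 each, exact permutation p = 0.1 in each line). *CD55* made up 32.5 ± 1.14% of the sum in negative SW1990 cells and 10.5 ± 0.971% in positive ones, and 24.5 ± 0.833% and 8.28 ± 2.98% in CFPAC-1. The share of *CD46* was the larger in positive cells, at 60.3 ± 1.55% against 38.4 ± 2.86% in SW1990 and 66.6 ± 6.35% against 57.3 ± 0.458% in CFPAC-1. All these shares were apart between negative and positive samples, and each gave an exact permutation p of 0.1. The share of *CD59* was 29.1 ± 1.71% and 29.2 ± 2.03% in SW1990 (exact permutation p = 1.0) and 18.3 ± 1.16% and 25.1 ± 4.59% in CFPAC-1 (0.1).

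**Figure D3:**
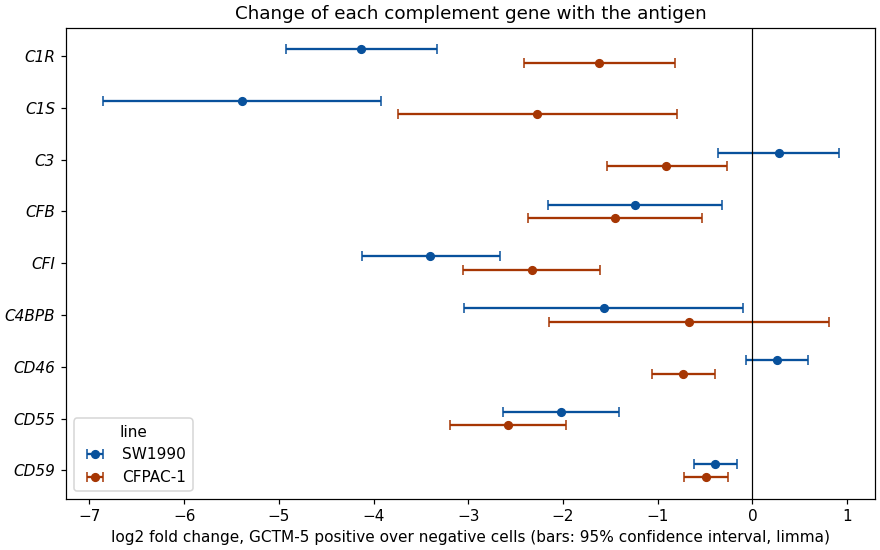
Log2 fold change of each complement gene from GCTM-5 negative to positive cells, in SW1990 (blue) and CFPAC-1 (brown), with bars for the 95% confidence interval of the limma fit. The intervals of *C1R*, *C1S* and *CD46* in the lines do not overlap, those of *CD55*, *CD59* and *CFB* do, and *C3* and *CD46* lie to the right of 0 in SW1990 and to the left in CFPAC-1.

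Whether the change with the antigen differed between the lines was tested as the change in SW1990 minus that in CFPAC-1. It did for 3 of the 9 genes. *C1R* and *C1S* fell more in SW1990, by differences in log2 fold change of -2.51 (SE 0.52, adjusted p = 0.00383) and -3.12 (SE 0.95, adjusted p = 0.03). *CD46* differed in the other direction, by 0.98 (SE 0.21, adjusted p = 0.00544). Among all genes tested the difference was lower for 17.8% and higher for 9.16%, with a median of -0.15. A count of 3 of 9 is thus near the share of all genes.

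The differences of *C1R* and *CD46* passed under all 22 alternatives. That of *C1S* did not pass with voom on reads or a pseudocount of 0.01, nor without negative replicate 2 or 3 of either line or positive replicate 1 of CFPAC-1, with values of -2.88 to -2.97 and adjusted p of 0.0664 to 0.0716 without these libraries. *C3* differed by 1.18 (95% interval 0.28 to 2.08, adjusted p = 0.0525), which passed under 10 of 22 alternatives, among them those without positive replicate 1 of SW1990 (1.42, adjusted p = 0.024), negative replicate 2 of SW1990 (1.34, adjusted p = 0.0472) or positive replicate 3 of CFPAC-1 (1.41, adjusted p = 0.0258). For *CFI* the value was -1.06 (-2.08 to -0.04, adjusted p = 0.116), which passed without positive replicate 1 of CFPAC-1 (-1.36, adjusted p = 0.0468), was -2.05 (adjusted p = 0.0277) with a pseudocount of 0.01 and turned to 0.77 with a pseudocount of 1. For *C4BPB* it was -0.90 (-2.99 to 1.19). *CD55*, *CD59* and *CFB* gave 0.55 (-0.31 to 1.42), 0.10 (-0.22 to 0.43) and 0.21 (-1.09 to 1.51). None of these 3 passed, and the intervals for *CD55* and *CFB* leave room for differences of over 2-fold.

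Negative cells of the lines also differed from each other. In SW1990, *C1R* (log2 difference from CFPAC-1 of 3.01), *C1S* (3.83) and *C4BPB* (2.07, adjusted p = 0.0166) were higher, and *CFI* (-3.77) and *CD46* (-1.39) were lower. Of all genes tested, 40.7% were higher and 28.2% lower in negative SW1990 than in negative CFPAC-1 cells, so 5 of 9 is no more than the share of all genes. The call of *C4BPB* was lost without negative replicate 1 or 2 of SW1990 (1.70 and 1.88, adjusted p of 0.0691 and 0.0542). With each sample centred on its median, every one of these differences shifted by -0.19, and *CD59*, at -0.14 (adjusted p = 0.268) as deposited, then passed as lower in SW1990 (-0.32, adjusted p = 0.0269). *CD55*, at -0.40 (adjusted p = 0.216), passed as lower when the negative groups were fitted alone (adjusted p = 0.00209) or without positive replicate 1 of CFPAC-1 (0.0256).

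In positive cells 3 of the 9 genes differed between the lines, beside 32.9% of all genes that were higher and 29.3% lower in SW1990. *C3* was higher in positive SW1990 cells (1.43, SE 0.29, adjusted p = 0.00109), and *CFI* (-4.83, SE 0.33, adjusted p = 1.53e-07) and *CD46* (-0.41, SE 0.15, adjusted p = 0.034) were lower. The call of *CD46* was lost without positive replicate 1 or 2 of CFPAC-1 or positive replicate 1 of SW1990 (-0.42, -0.27 and -0.28). Without positive replicate 1 of SW1990, *C1R* (0.92, adjusted p = 0.0287), *C1S* (1.65, adjusted p = 0.00866) and *CFB* (1.37, adjusted p = 0.00321) were also called higher in SW1990, and the count was 5.

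The order of the 4 groups differed from gene to gene. *C1R* and *C1S* were highest in negative SW1990 cells, then in negative CFPAC-1 cells, and their positive groups overlapped. *CFI* gave 4 groups with no overlap, from 25.8 ± 1.44 RPKM in negative CFPAC-1 cells through 5.62 ± 3.4 and 1.80 ± 0.144 RPKM to 0.0863 ± 0.0611 RPKM in positive SW1990 cells, so positive CFPAC-1 cells had more *CFI* than negative SW1990 cells. *CD46* was higher in both CFPAC-1 groups than in both SW1990 groups, and the SW1990 groups overlapped. *CD55* and *CD59* were highest in negative CFPAC-1 cells and next in negative SW1990 cells, and their positive groups overlapped. For *CFB* and *C4BPB* each group overlapped the next, and for *C3* positive CFPAC-1 cells alone stood apart, as the lowest group.

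Across the 12 samples, levels on the log2 scale were correlated for *C1R* and *C1S* (Pearson r = 0.98), *CD55* and *CD59* (0.96), *C1R* and *CFB* (0.86) and *CFI* and *CD46* (0.73). *C1R* and *CFI* gave 0.08 and *C4BPB* and *CD46* gave -0.65. These values describe 12 samples in 4 groups that share line and sort. Among 13266 other genes with a mean of at least 1 RPKM, the pattern most like *C1R* was that of *TPP1* (r = 0.989), followed by *C1S* itself and *PLTP* (0.982 each). *SV2A* (0.99) was among the 3 closest to *CFI*. *BCL2L14* (0.981) was the closest to *CD46*, *IFNGR2* (0.941) to *C3*, *MDK* (0.959) to *CFB* and *RPL28* (0.916) to *C4BPB*. *SHC2* was the closest to *CD55* (0.974) and *VAMP5* to *CD59* (0.964), and *SHC2* and *MAGED1* were among the 3 closest to both.

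A list of 46 further genes of the complement system, 45 of them in the table, placed these results in the pathway. Only 18 reached a mean of 0.1 RPKM and were tested. Of the other 27, 14 were at 0 in all 12 samples, among them the C1q genes *C1QA*, *C1QB* and *C1QC*, and 21 had at most 3 reads in any sample. *C4A* and *C4B*, near-identical copies with the same values in the table, reached at most 0.222 RPKM. The C1 proteases were thus expressed without transcripts of C1q and with few counted for C4. How reads shared by *C4A* and *C4B* were counted is not given, so the level of C4 may be understated. Of the pore-forming components only *C5* (at most 0.279 RPKM) and *C8G* (at most 0.888 RPKM) were tested.

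Of the 18 tested, 8 fell and 1 rose in SW1990 and 6 fell and 0 rose in CFPAC-1, with median log2 fold changes of -0.70 and -0.56. Of all genes tested, 16.9% fell and 11.3% rose in SW1990, and 14.2% fell and 22.3% rose in CFPAC-1. Among the 18 complement genes, those that fell in both lines included *SERPING1*, *C1RL* and *ITGAX*. *SERPING1*, which encodes the C1 inhibitor that blocks C1r and C1s, went from 6.92 ± 2.3 to 1.02 ± 0.129 RPKM in SW1990 (log2 fold change -2.60, adjusted p = 0.000254). The CFPAC-1 levels of *SERPING1* were 2.54 ± 0.68 and 0.705 ± 0.428 RPKM (-1.83, adjusted p = 0.0031). The inhibitor of the C1 proteases thus fell along with the proteases themselves.

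*C1RL*, a relative of *C1R* whose gene overlaps it by 3021 bases on the same strand, fell less, by 0.79 and 0.68 on the log2 scale (adjusted p of 0.00256 and 0.006). *ITGAX*, a chain of an integrin that binds cleaved C3, held 12 to 42 reads in the negative samples of SW1990 against 2 to 5 in its positive samples. In CFPAC-1 the negative samples held 6 to 27 reads of it and the positive samples 0. Falls in SW1990 that did not pass in CFPAC-1 were those of *CLU*, a soluble inhibitor of pore formation (-2.37, adjusted p = 1.48e-06), *VTN*, *CFD* and *C5*, and the receptor gene *C5AR1* fell in CFPAC-1 (-1.76, adjusted p = 0.00061) and did not pass in SW1990. The difference between the lines passed for all 5, with values of -2.03 (*CLU*, adjusted p = 0.000149), -1.41 (*VTN*, 0.0234), -1.98 (*CFD*, 0.0141), -1.59 (*C5*, 0.0121) and 1.41 (*C5AR1*, 0.0199). *ITGB2*, the beta chain shared by complement receptor integrins, rose in SW1990 (0.81, adjusted p = 0.000529) and fell in CFPAC-1 (-0.59, adjusted p = 0.00432).

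**Figure D4:**
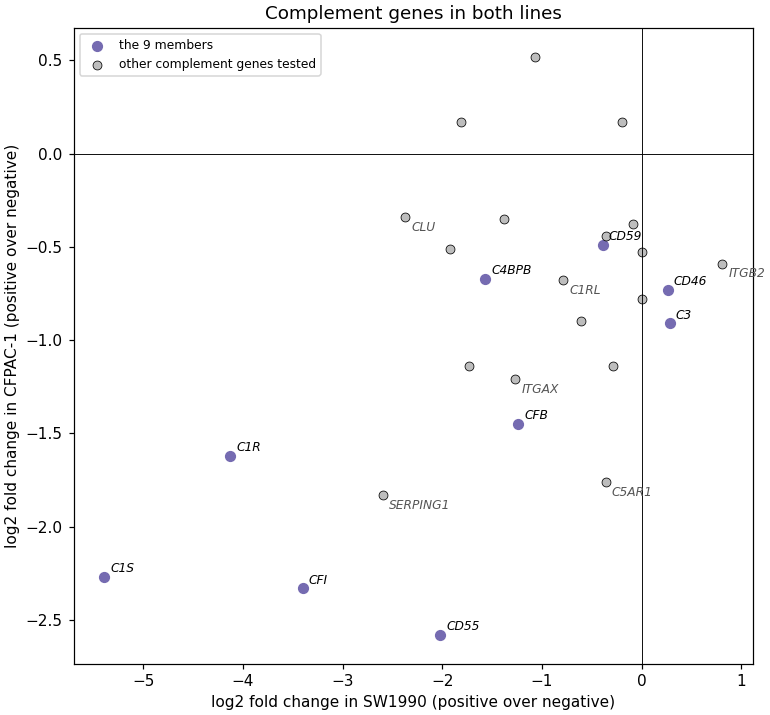
Log2 fold change from GCTM-5 negative to positive cells in SW1990 (horizontal) and CFPAC-1 (vertical) for the 9 complement genes (purple) and the 18 other complement genes tested (grey), with lines at 0. *C1S* lies farthest left at -5.39 and *CD55* lowest at -2.58, and *ITGB2* is the farthest to the right at 0.81.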

How the data were processed

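Samples were grouped by line and GCTM-5 staining, 3 per group. The deposited values are RPKM that the authors computed with QuasR from reads mapped to GRCh37 (hg19), and the labels also name bcl2fastq. The version and annotation, and the handling of strand and shared reads, are not given in the sources used here. The paper and the labels name different library kits, media and secondary antibodies. Library totals and whole reads were recovered from the RPKM values (all 19654 genes above 0, tolerance 0.01 read), with 0 columns unmatched to samples.

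The log2 of RPKM plus a pseudocount of 0.1 was fitted with limma 3.58.1 in R 4.3.3 (4 group means, eBayes with trend, 2-sided) over the 16236 genes with a mean of at least 0.1 RPKM, and fold changes on this scale understate those of low genes. A change passed at a Benjamini-Hochberg adjusted p under 0.05. The study's TCC needs counts and was not used. The fit was tested on simulated data. The paper describes sorts in triplicate, and the labels do not say that samples came from separate cultures. The p-values thus measure the spread between these samples, which may be technical. Samples were not paired by their replicate number.

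The 9 genes, the lists (other complement, GPI anchor, acute phase and interferon genes, cell type markers) and the alternatives were chosen with earlier results of these data known, and the motifs and printed promoters after the values were seen. From the lists, genes past the test in the same direction in both lines, and the 2 highest and 2 lowest changes per list and line, were eligible for naming. *VTN*, *CFD*, *C5*, *C8G* and the genes at 0 were named after their values were seen. For likeness, the 3 genes with the highest correlation were taken. Some genes that these rules would name are not reported here. Alternatives were pseudocounts of 1 and 0.01, no filter or a mean of at least 1 RPKM, median centring, quantile normalization, a replicate block, only the groups compared, eBayes without trend, voom on recovered reads and each sample left out. Leaving out both SW1990 replicate 1 libraries was added after seeing the data. Exact permutation tests, exact intervals of read ratios and figures used Python 3.11.15 with scipy 1.17.1, pandas 2.3.3, numpy 2.4.6 and matplotlib 3.10.9.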

Additional observations from a re-analysis of the deposited data

Results flagged for a closer look

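The change from GCTM-5 negative to positive cells differed between the lines for 3 of the 9 complement genes, beside 17.8% of all genes tested with a lower and 9.16% with a higher difference. This count is near the share of all genes. For *C1R* the log2 change in SW1990 minus that in CFPAC-1 was -2.51 (adjusted p = 0.00383, limma). For *C1S* it was -3.12 (adjusted p = 0.03). For *CD46* it was 0.98 (adjusted p = 0.00544), and the gene fell in CFPAC-1 and did not pass in SW1990.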

How the results depend on the processing

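Over 23 alternatives (22 for the difference between lines), 940 of 1021 values of single genes kept their direction and side of the threshold, 45 lost the call, 26 gained it and 10 changed sign. Of 25 called results, 17 kept their call throughout and 0 changed sign. With single libraries left out, the count of complement genes past the test was 4 to 6 in SW1990, 5 to 8 in CFPAC-1, 2 to 4 for the difference between lines, 4 to 6 between negative cells and 2 to 5 between positive cells, the last also being 5 without replicate 1 in either SW1990 group. The sign changed for *C3* in SW1990 (-0.0013 to 0.51 with single libraries left out), for the difference between lines of *CD59* (-0.02 to 0.19), *CFB* (-0.17 to 0.76, with -0.06 and -0.11 among them) and *CFI* (0.77 with a pseudocount of 1), and between positive cells for *CD55* (-0.27 to 0.45) and *CD59* (-0.15 to 0.06, with 0.02 without replicate 1 in either SW1990 group), none of which passed the test with the sign changed. To look for pairing, the deviations of each sample from its group mean on the log2 scale were correlated between negative and positive samples of a line. For same-numbered samples these correlations of deviations were -0.0593 to 0.00126 in CFPAC-1 and 0.0163 to 0.185 in SW1990. Only some samples correlated best with their own number. The numbers were thus not taken to pair the samples, for which no source was found. With a replicate block, 6 genes passed in SW1990, 8 in CFPAC-1, 4 for the difference between lines, 5 between negative and 4 between positive cells, where *C3* (adjusted p = 0.0225) joined for the difference and *CFB* (0.0418) between positive cells. Centring each sample on its median shifted changes by 0.05 in SW1990, by -0.10 in CFPAC-1 and their difference by 0.15, on the log2 scale. Depth limited *C4BPB* in CFPAC-1, *C1S* in positive cells and *CFI* in positive SW1990 cells, with at most 34 reads of each in a sample.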

Other observations

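Of 20 acute phase genes, 11 were tested, of which 2 rose and 1 fell in SW1990 and 2 rose and 6 fell in CFPAC-1, with median log2 fold changes of 0.00 and -0.72. Among all genes tested, 11.3% rose and 16.9% fell in SW1990 and 22.3% rose and 14.2% fell in CFPAC-1. *CP*, the copper-carrying ferroxidase ceruloplasmin, fell in both lines, from 11.1 ± 2.37 to 4.13 ± 0.425 RPKM in SW1990 (log2 fold change -1.38, adjusted p = 0.00034, limma). Its CFPAC-1 levels were 79.6 ± 10.7 and 16.9 ± 4.45 RPKM (-2.26, adjusted p = 2.61e-05). *LCN2*, which encodes an iron-sequestering lipocalin, rose in SW1990 (1.75, adjusted p = 0.000222) and fell in CFPAC-1 (-0.72, adjusted p = 0.0399). The protease inhibitor gene *SERPINA1* did likewise (1.02 and -1.88, difference between lines 2.90, adjusted p = 2.77e-05). *SAA1* and *SAA2*, close paralogs that may share reads, rose in CFPAC-1 from levels under 1 RPKM, and *HP* fell there with at most 9 reads in a sample.

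Of 21 interferon response genes, all tested, 0 rose and 6 fell in SW1990 and 2 rose and 2 fell in CFPAC-1, with median log2 fold changes of -0.21 and -0.04. Of all genes tested, 11.3% rose and 16.9% fell in SW1990, and 22.3% rose and 14.2% fell in CFPAC-1. The CFPAC-1 counts were thus under the shares of all genes. *GBP2*, an interferon-induced GTPase, fell in both lines, from 14.1 ± 4.48 to 1.78 ± 0.767 RPKM in SW1990 (-2.94, adjusted p = 5.63e-05). Its CFPAC-1 levels were 109 ± 7.48 and 36.2 ± 16.6 RPKM (-1.68, adjusted p = 0.00325). *IDO1*, encoding a tryptophan-degrading enzyme, fell from 50.9 ± 17.2 to 8.66 ± 5.25 RPKM in SW1990 (-2.65, adjusted p = 0.000466) and was under 1 RPKM on average in both CFPAC-1 groups. In CFPAC-1 *OAS3* rose (1.02, adjusted p = 0.000738) and *IFIT2* fell (-0.40, adjusted p = 0.0313).

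*CD55* and *CD59* need a GPI anchor to reach the membrane, and all 28 genes of anchor assembly listed were tested. In SW1990 3 rose and 3 fell, and in CFPAC-1 7 rose and 0 fell, with median log2 fold changes of 0.02 and 0.11, which is near or under the shares of all genes given above for rises in both lines and falls in SW1990. *PIGM*, a mannosyltransferase of the pathway, rose in both lines (0.35, adjusted p = 0.019, and 0.43, adjusted p = 0.0049). *PIGW* rose in CFPAC-1 from 5.27 ± 0.232 to 19.3 ± 2.95 RPKM (1.84, adjusted p = 2.54e-05), *DPM2* rose there too (0.87, adjusted p = 4.82e-05), and *PGAP1* (-1.02, adjusted p = 0.0026) and *PIGZ* (-0.87, adjusted p = 0.0247) fell in SW1990, while *PGAP2* (0.58, adjusted p = 0.00495) and *PIGO* (0.41, adjusted p = 0.0145) rose.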
